A study of Mus musculus with 17 samples.

Results

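Chromatin accessibility was compared between kidneys of untreated diabetic mice (Case, n = 6) and kidneys of healthy mice (Ctrl, n = 5), which together gave 11 of the 17 libraries of the series. The libraries were chosen by their labels alone. Ctrl mice were male C57BL/6 mice with the wild-type genotype. Case mice were male db/db mice of the strain BKS.Cg-Dock7m +/+ Leprdb/J, in which a mutation of Lepr, the receptor of the satiety hormone leptin, leads to obesity and diabetes. Mice of both groups entered the experiment at 8 weeks of age, ate standard chow and received saline by gavage for 6 weeks, and the db/db mice given dapagliflozin, the other group of the series, were not used. Each library came from 20000 cells of a kidney, so cell types were mixed in it. Which cell types were among these cells was not measured. The db mutation is in every cell and sits on the BKS strain, so diabetes, genotype and strain cannot be told apart here. Nothing in the labels names a litter, a batch or a day.

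ATAC-seq, which reads out open chromatin, uses a transposase that inserts adapters into DNA not covered by nucleosomes, so that active promoters and enhancers give peaks of reads. Promoters of genes that every cell uses are open in all cell types, whereas enhancers in introns and between genes are mostly open in few. The kidney is made up largely of proximal tubule cells, which take back glucose, phosphate and amino acids from the filtrate, beside podocytes, further tubule segments, vessels, stroma and leukocytes. In diabetic kidney disease the glomerular filter leaks albumin, tubules are injured and leukocytes move in.

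The data were lists of summits, the single bases at which each peak of a library was highest. The 29702 highest-scoring summits of every library were used, so that all lists had the same length, and every summit was given its rank percentile within its own list, from 0 to 100, with 100 for the strongest. Windows reaching 250 bp to both sides of a summit were merged over the 11 libraries into 92775 regions. A region was called a promoter when it was centred no more than 1 kb from an annotated transcription start, and otherwise an exon, intron or intergenic region, which gave 21397 promoters, 3802 exons, 32285 introns and 35291 intergenic regions. Distances between a region and a gene are to the nearest transcription start.

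For 7 of the named regions, the 150 bases nearest the middle that overlap no exon are printed 5′ to 3′ from the reference genome GRCm38.p6 (mm10), an assembly of C57BL/6J. Capitals mark matches to the motif letters given with each sequence, on either strand, and a sequence without capitals had no match to any of the 15 motifs searched. The first set holds regions that ranked higher or were found more often in Case. It is shown because its 3 sequences are tandem repeats, in which a short unit follows itself again and again.
Fstl4, intergenic: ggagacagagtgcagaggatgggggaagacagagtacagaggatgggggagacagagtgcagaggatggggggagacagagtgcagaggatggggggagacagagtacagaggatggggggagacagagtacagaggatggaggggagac
Dock2, intron: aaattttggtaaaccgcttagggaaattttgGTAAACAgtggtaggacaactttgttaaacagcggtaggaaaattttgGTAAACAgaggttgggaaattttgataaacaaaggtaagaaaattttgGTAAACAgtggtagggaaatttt
Sulf1, intergenic: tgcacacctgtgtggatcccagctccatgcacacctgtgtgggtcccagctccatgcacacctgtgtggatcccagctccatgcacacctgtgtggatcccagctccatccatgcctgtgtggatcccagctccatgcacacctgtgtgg
The Fstl4 sequence was chr11:52744080-52744229, the Dock2 sequence chr11:34681867-34682016 and the Sulf1 sequence chr1:12657527-12657676, all on the + strand. Capitals in the Dock2 intron are 3 matches to the letters TGTTTAC of forkhead (FOX) factors. The second set holds regions that were absent or ranked lower in Case. It is shown for contrast, because none of the 4 is a tandem repeat and each occurs once in the genome at its centre. Some named regions higher in Case, such as the Il10rb promoter, were not tandem repeats and are not printed. The contrast between the sets therefore comes from this choice.
Intu, promoter: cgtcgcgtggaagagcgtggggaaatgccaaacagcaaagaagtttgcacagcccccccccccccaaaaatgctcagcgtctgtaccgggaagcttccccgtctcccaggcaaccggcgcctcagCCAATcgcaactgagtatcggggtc
Mms22l, promoter: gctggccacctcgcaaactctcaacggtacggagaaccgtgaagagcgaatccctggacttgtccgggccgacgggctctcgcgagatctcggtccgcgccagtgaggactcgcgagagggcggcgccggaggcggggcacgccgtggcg
Ryr2, promoter: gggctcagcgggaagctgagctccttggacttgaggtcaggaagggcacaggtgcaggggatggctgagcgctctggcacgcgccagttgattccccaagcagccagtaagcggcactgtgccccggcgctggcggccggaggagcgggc
Iqcm, intron: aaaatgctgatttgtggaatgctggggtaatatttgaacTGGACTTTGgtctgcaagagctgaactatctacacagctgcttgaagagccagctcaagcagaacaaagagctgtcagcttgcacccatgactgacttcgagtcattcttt
These were chr3:40540617-40540766, chr4:24496301-24496450 and chr8:75513906-75514055 on the + strand and chr13:12106946-12107095 on the - strand. Capitals in the Intu promoter are a match to CCAAT, the letters bound by NF-Y, and capitals in the Iqcm intron are a match to CAAAGTCCA, the letters of HNF4, a factor of proximal tubule and liver.

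The libraries differed in size before they were made equal, with 37402 to 56659 summits in Ctrl and 29702 to 51292 in Case. Case 2, Case 3 and Case 4 had the fewest, at 31176, 29845 and 29702. Sequencing depth is unknown, and it was not tested how far it moved with the results. Counts without these 3 libraries are therefore also given where that changes them, beside the result or with the processing alternatives. Of the defining markers of kidney cells, the promoters of Lrp2 (megalin) and Slc34a1 (the sodium-phosphate cotransporter) of the proximal tubule and of Slc12a3 of the distal convoluted tubule had a summit in all 11 libraries. The promoters of Slc12a1, Aqp2, Pecam1, Pdgfrb, Ptprc and Adipoq had none in any library, and neither had that of Lepr, whose mutation cannot be seen in summit lists. In whole kidney, fewer cells of a type and less accessibility per cell cannot be told apart.

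Compared with healthy mice, diabetic mice had a smaller share of their summits at promoters. It was 43.9%, 43.7%, 44.0%, 44.4% and 43.9% in Ctrl 1 to 5, and 39.8% at the lowest, 41.6% at the median and 43.6% at the highest in Case. Every Case mouse lay below every Ctrl mouse, with Case 2 lowest and Case 5 closest to Ctrl. The difference of -2.31 percentage points (41.7 ± 1.25 against 44.0 ± 0.253, SD) was larger than the spread between mice (exact permutation test over 462 relabellings, 2-sided, p = 0.00433, adjusted over 8 values 0.0346). The direction turned, to +2.35 points, when all summits were kept in place of lists of equal length, and to +5.46 points with a score of at least 5. On autosomes alone it was -2.05 points with an adjusted p of 0.0519 (exact permutation test), so the call was lost. It was -1.503 points without Case 2, Case 3 and Case 4.

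No other class passed the test with all mice kept. Intronic summits made up 27.9% ± 1.32 in Case and 27.99% ± 0.798 in Ctrl (exact permutation test, p = 0.939), exonic summits 3.43% ± 0.310 and 3.27% ± 0.0668 (exact p = 0.292), and intergenic summits 27.0% ± 2.64 and 24.8% ± 0.762 (exact p = 0.102). Intronic summits stood higher in the lists of Case, with a mean percentile of 41.4 ± 1.13 against 39.96 ± 0.303 (exact permutation test, p = 0.0238, adjusted 0.0952), higher than all of Ctrl in each Case mouse but Case 3, which was lower than all of Ctrl. With all summits kept the difference was -0.364 points. The mean percentile of promoter summits differed by -0.085 points (exact p = 0.898), and intergenic summits differed by 0.494 points (exact p = 0.459). None of these passed adjustment over the 8 values.

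Among the 1000 strongest regions of each mouse, a cutoff added after the data had been seen and described without a test, the gap was wider. Promoters made up 84.0%, 82.8%, 83.4%, 80.9% and 80.7% of them in Ctrl 1 to 5. In Case they made up 70.8% at the lowest, 74.2% at the median and 76.2% at the highest. The groups did not overlap. Restricted to regions whose central 50 bases occur once in the genome, the share was 88.4% to 90.6% in Ctrl and 83.4% to 86.2% in Case, again with no overlap.

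**Figure D1:**
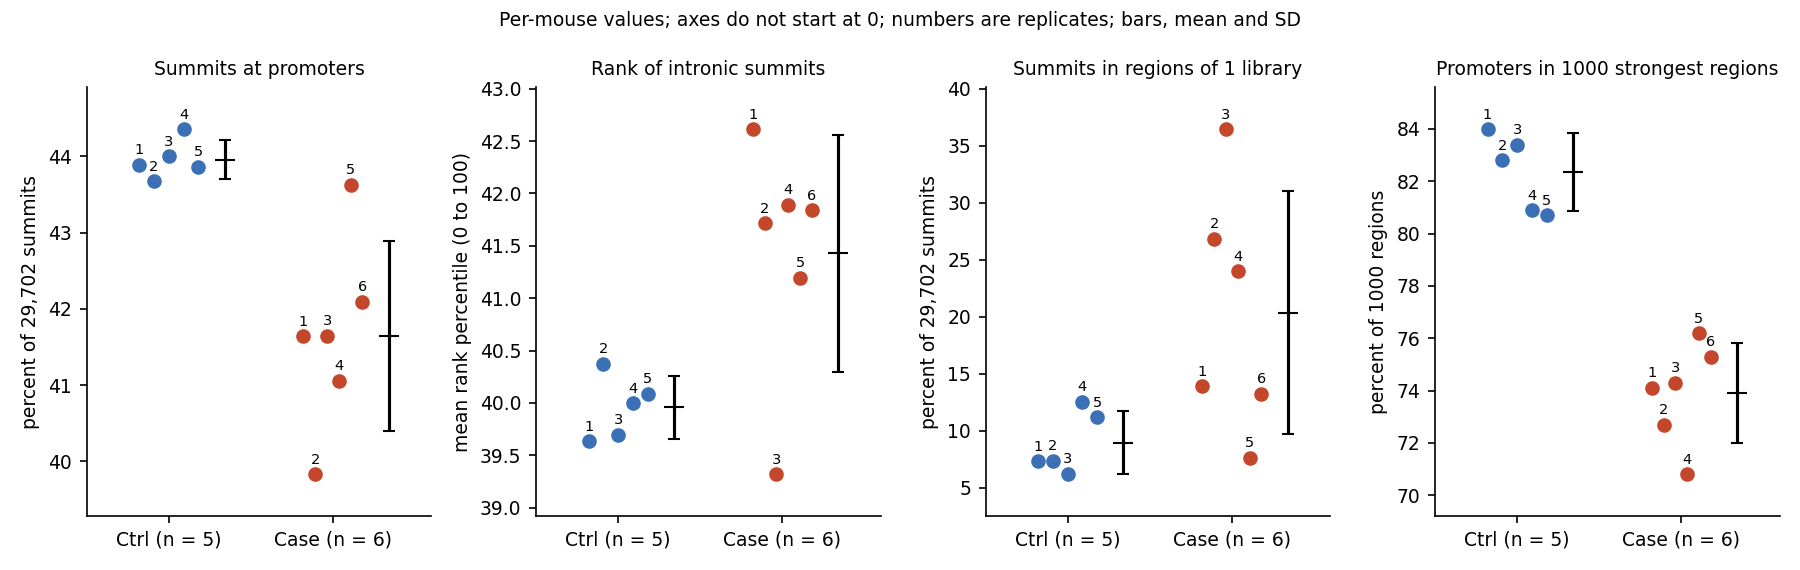
Each dot is 1 mouse, labelled with its replicate number, and bars give mean and SD. The panels show the percent of 29702 summits at promoters, the mean rank percentile of intronic summits, the percent of summits in regions found in 1 library, and the percent of the 1000 strongest regions that are promoters. Every Case mouse lies below every Ctrl mouse in the first and last panels, and Case 3 departs from the other Case mice in the panels of intronic ranks and of regions found in 1 library.

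Fewer regions were constant over the 6 diabetic kidneys than over the 5 healthy ones, in groups of unequal size. Of 15741 regions present in all 5 Ctrl mice, 8693 (55.2%) were also present in all 6 Case mice, while 92.3% of the 9416 regions in all 6 Case mice were in all 5 Ctrl mice. The Ctrl-constant regions found in all Case mice were 69.8% of promoters, 29.5% of introns and 35.3% of intergenic regions. Single Case mice held 68.2% (Case 3) to 92.9% (Case 5) of the Ctrl-constant regions. Summits in regions found in no other library made up 7.37%, 7.39%, 6.26%, 12.6% and 11.2% of the lists of Ctrl 1 to 5, and 7.65% to 36.5% of those of Case, highest in Case 3, Case 2 and Case 4. The difference of 11.4 points had an exact permutation p of 0.0455 and an adjusted p of 0.121, and Case 5 was the one Case mouse within the Ctrl range.

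The next question was which regions were present more or less often in diabetic kidneys. Of 92775 regions, 11550 were found in 4 to 7 libraries and could reach an unadjusted p under 0.05. No region passed Fisher's exact test after Benjamini-Hochberg adjustment (lowest adjusted p 0.135). At an unadjusted p under 0.05, 100 regions (0.866%) were more frequent in Case and 1074 (9.3%) less frequent. By class, 246 of 2909 promoters (8.46%), 359 of 4455 introns (8.06%) and 445 of 3674 intergenic regions (12.1%) were present less often, against 13, 45 and 39 more often. Present in all mice of one group and in none of the other were 4 regions in Case, 2 of them introns, 1 intergenic and 1 exonic, and 181 regions in Ctrl, of which 45 were promoters, 60 introns and 76 intergenic. Without Case 2, Case 3 and Case 4 the counts were 188 more often and 322 less often. With single mice left out they ran from 130 to 242 more often and from 1173 to 1978 less often. Fewer mice change which regions can reach this p, and the numbers tested are not given for these settings. Counts with mice left out therefore cannot be set against the 100 and 1074 from all mice. Fewer regions were found more often with all summits kept or with a score of at least 5.

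Promoters found in every Ctrl mouse and in no Case mouse included those of Intu, which is needed to build primary cilia, Csrnp3, Stag2, an X-linked subunit of the cohesin ring, and Myb, a transcription factor of blood progenitors (Fisher's exact test, p = 0.00216 and adjusted p = 0.135 for each). The Intu promoter had percentiles of 55.7, 83.8, 81.0, 48.6 and 45.1 in Ctrl 1 to 5. That of Stag2 had 69.7, 46.6, 60.2, 39.99 and 78.8. These were named because they had the highest mean percentiles among 45 promoters with the same p, whose Ctrl means ran from 21.1 (Eid2) to 62.8 (Intu). In the intron of Iqcm on chromosome 8 (chr8:75513714-75514278, 64998 bp from the start) the Ctrl percentiles were 71.0, 86.9, 92.7, 73.8 and 83.4. The reverse case was an intergenic region 20479 bp from Fstl4, a follistatin-like gene (chr11:52743868-52744416), at percentiles of 61.7 at the lowest, 85.5 at the median and 96.8 at the highest in Case and absent from Ctrl. The promoter of Adam15, a membrane metalloprotease, was found in 5 Case mice and no Ctrl mouse, and that of Phldb1 in 6 Case mice and Ctrl 4 alone (p = 0.0152 and adjusted p = 0.149 for each, Fisher's exact test). None of these passed adjustment.

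Regions present in all 11 libraries were compared by rank, with limma on the percentile. Of the 8693 regions tested none passed an adjusted p of 0.05 (lowest adjusted p 0.0699). At an unadjusted p under 0.05, 560 (6.44%) ranked higher in Case and 684 (7.87%) lower. Among these regions the classes went opposite ways. Of 6716 promoters, 258 ranked higher and 610 lower, with a median difference of -1.49 percentile points, whereas of 932 intergenic regions 176 ranked higher and 36 lower (median 1.49), and of 918 introns 112 ranked higher and 32 lower (median 0.079). With regions in at least 5 libraries and absent summits set to percentile 0, more regions of each class were lower than higher in Case at limma's adjusted p under 0.05. There were 8 promoters, 15 introns and 30 intergenic regions higher and 83, 91 and 120 lower (54 and 302 regions in all). These counts partly restate presence, since 181 regions entered through all 5 Ctrl mice with no Case mouse. Another 58 entered through 5 Case mice and 4 through 6 Case mice with no Ctrl mouse. The direction of such regions was fixed by the filter. The counts are therefore not set against the class pattern, and no common direction is read from them. On normal scores of the same ranks, an alternative that spreads out the ends of the list, 147 regions (1.69%) passed as higher in Case and 158 (1.82%) as lower with limma's adjusted p under 0.05. Promoters were 137 of the 158 lower regions and 17 of the 147 higher ones, 47 of which were introns and 79 intergenic. The groups did not overlap in 78 of the 147 and in 78 of the 158. These regions were called from the same values, and the count over all 8693 regions is not given. The overlap therefore adds nothing to the calls. Without Ctrl 1, Ctrl 2 or Ctrl 3 the higher regions numbered 75, 54 and 56 and the lower ones 41, 17 and 28, without Ctrl 5 the lower ones numbered 95, and without Case 2, Case 3 and Case 4 together the counts were 75 higher and 256 lower. On the percentile scale, 28 regions passed as higher without Ctrl 4 and 11 without Ctrl 5. Without Case 2, Case 3 and Case 4 together regions passed on this scale too, most of them as lower.

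The regions that ranked higher in Case differed in sequence from those that ranked lower. A region was counted as repeated when at least 70% of the bases within 150 bp of a region's middle matched the base 5 to 100 positions further on, or when its central 50 bases occurred more than once in the genome. By this measure, made after the data had been seen, 68.0% of the 147 regions higher on normal scores were repeated, against 5.75% of the 8693 regions tested and 3.16% of the 158 lower regions. In introns it was 74.5% of the higher regions against 13.6% of those tested, in intergenic sequence 72.2% against 23.4%, and at promoters 35.3% against 2.16%. In the presence test 47% of the 100 regions found more often in Case were repeated, against 11.7% of those tested and 9.87% of those found less often. With repeated regions set aside and p-values adjusted over the rest, 34 regions passed as higher and 105 as lower on normal scores. Copies also made up more of the 1000 strongest regions, 13.3% to 17.3% in Case and 9.8% to 12.3% in Ctrl. Among all regions of a mouse the groups overlapped, at 6.63% to 21.2% in Case and 5.57% to 10.8% in Ctrl, with Case 5 and Case 6 within the Ctrl range and the highest values in Case 2, Case 3 and Case 4. Reads of both groups were placed on the C57BL/6J assembly, and copy number in db/db mice was not analysed here.

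**Figure D2:**
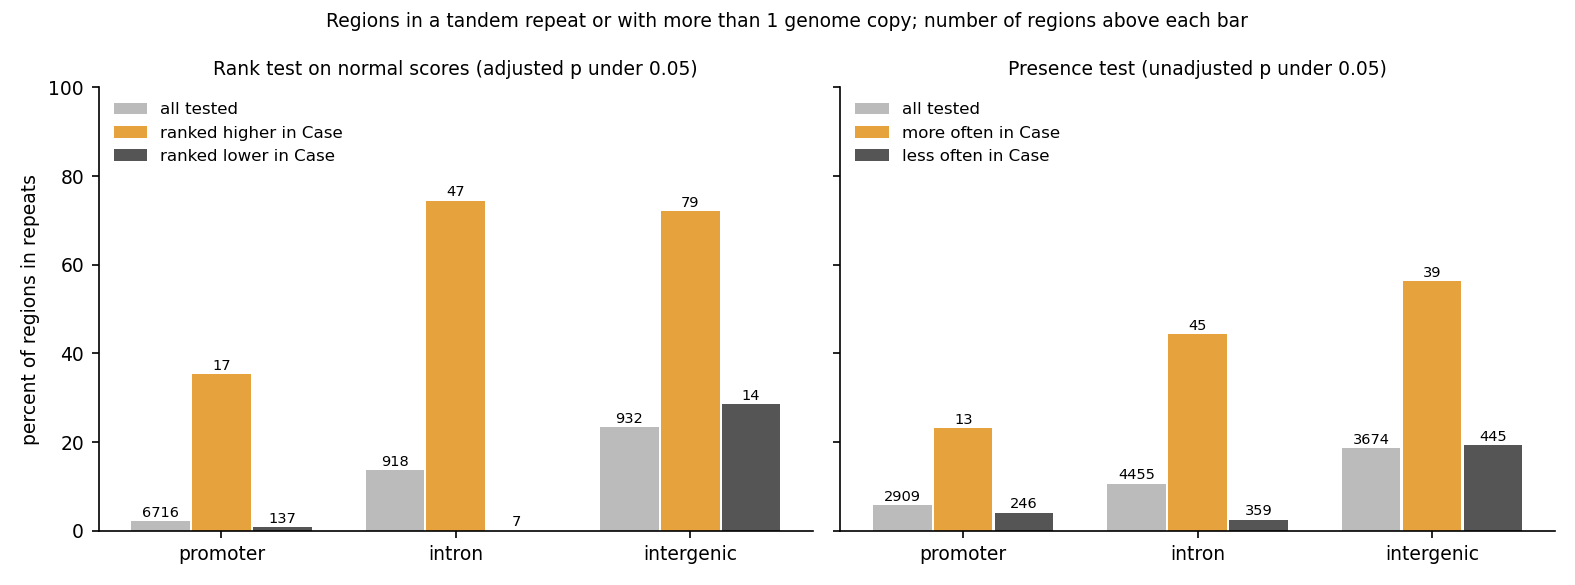
Bars give the percent of regions, by class, that lie in a tandem repeat or have more than 1 genome copy, among all regions tested and among those higher or lower in Case, with the number of regions above each bar. In each class the bar for regions ranked higher (left) or found more often (right) in Case is the tallest.

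Among the named regions, the largest gain of rank was in an intron of Dock2, an activator of Rac in leukocytes (chr11:34681589-34682296, 6537 bp from the start). Its percentiles were 37.4, 4.81, 27.5, 39.99 and 45.1 in Ctrl 1 to 5 and 66.7, 90.7 and 97.5 (lowest, median, highest) in Case, a difference of 55.9 ± 8.43 points (SE) with a limma adjusted p of 0.0699 and of 0.00225 on normal scores. Its groups did not overlap, and 73.7% of the bases matched the base 96 positions on. An intron of Itgad, which encodes an integrin chain of leukocytes (chr7:128187445-128188703), stood at 83.7, 81.2, 80.4, 85.0 and 79.0 in Ctrl and 92.3, 97.3 and 98.7 in Case, a difference of 14.4 ± 2.08 points (adjusted p 0.0699, on normal scores 0.00714, limma). It too was a tandem repeat, with 84.1% of bases matching at a distance of 56. The intergenic region 34675 bp from Sulf1, a heparan sulfate sulfatase, ranked 79.5 to 89.7 in Ctrl and 94.3 to 99.1 in Case, and 93.9% of its bases matched the base 54 positions on. Introns of Nxpe4 and Gm3005 and a region 151222 bp from H60c were likewise repeats, at 97.3%, 94.9% and 87.9%.

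Unique sequence that ranked higher in Case lay at the promoter of Il10rb, a chain shared by several cytokine receptors (chr16:91405497-91406554, 19 bp from the start). Its percentiles were 11.9, 36.7, 42.1, 14.7 and 27.9 in Ctrl 1 to 5 and 60.8, 72.5 and 83.1 (lowest, median, highest) in Case. Every Case mouse was above every Ctrl mouse, by 46.0 ± 7.97 points on average (limma adjusted p 0.0823, and 0.0173 on normal scores). The promoter of Sh3bp5, an exchange factor of vesicle traffic (chr14:31435878-31436508), stood at 77.6, 83.0, 81.3, 91.4 and 87.1 in Ctrl and 92.9, 96.1 and 98.7 in Case, a difference of 12.0 ± 2.39 points (adjusted p 0.0937, and 0.0193 on normal scores, limma). Its groups did not overlap either. Outside repeats, 47 regions were higher on normal scores, 22 intergenic, 12 in introns, 11 at promoters and 2 in exons. These calls were adjusted over all regions tested. Fewer passed when p-values were adjusted outside repeats alone, so not all of the 47 kept the call. Named after their values were seen, the promoters of Vmp1, an autophagy protein, Pithd1, Stag1, a cohesin subunit, and Litaf were among them.

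The named regions that ranked lower in Case included promoters and an intergenic region. The promoter of Mms22l, which protects stalled replication forks (chr4:24496054-24496718), stood at 90.3, 88.7, 93.1, 70.2 and 95.1 in Ctrl and 28.2, 48.8 and 61.7 in Case, a difference of -41.2 ± 7.79 points (limma adjusted p 0.0842, and 0.00549 on normal scores). The promoter of Ryr2, a calcium release channel (chr13:12106679-12107293), stood at 92.1, 95.6, 87.0, 88.5 and 87.6 in Ctrl and 60.8, 66.4 and 74.1 in Case (-23.2 ± 4.61, adjusted p 0.0937, on normal scores 0.0190, limma). The shared promoter of Mettl15 and the mitotic kinesin Kif18a ranked 97.8 to 98.9 in Ctrl and 81.1 to 94.1 in Case. In these 3 promoters every Case mouse was below every Ctrl mouse. An intergenic region 181139 bp from Fam173b (chr15:31782897-31783694) differed most, at 92.7, 91.7, 97.2, 93.8 and 69.0 in Ctrl and 3.35, 21.3 and 78.8 in Case (-58.9 ± 11.9, adjusted p 0.0957, on normal scores 0.00288, limma), and here Case 5 lay within the Ctrl range. None of the 12 named regions that ranked lower was a tandem repeat.

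Introns that ranked lower in Case lay in Ints6l, Gpc6, Slc1a2 and Sfi1. The Ints6l intron on X (chrX:56455582-56456315) stood at 95.4, 97.4, 97.4, 91.9 and 92.9 in Ctrl and 30.9, 52.8 and 86.7 in Case, with no overlap (-38.6 ± 8.94 points, limma adjusted p 0.117, and 0.00263 on normal scores). The intron of Gpc6, a glypican of the cell surface, stood at 90.9, 96.3, 88.7, 48.6 and 88.8 in Ctrl and 16.2, 41.3 and 61.7 in Case, and Ctrl 4 lay among the Case mice (-41.7 ± 10.51, limma adjusted p 0.132, and 0.0160 on normal scores). Another intronic region of Gpc6, 183785 bp from a start, was present in 6 Case mice and in Ctrl 2 alone, and 91.5% of its bases matched the base 18 positions on. The 2 regions of this gene differed in opposite directions. The intron of Slc1a2, a glutamate transporter, stood at 83.7 to 91.5 in Ctrl and 30.9 to 85.0 in Case (-32.9 ± 8.57, limma adjusted p 0.134, and 0.0196 on normal scores), with Case 5 inside the Ctrl range. That of Sfi1 differed by -31.4 ± 8.83 points and passed on neither scale (limma adjusted p 0.152, and 0.130 on normal scores).

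**Figure D3:**
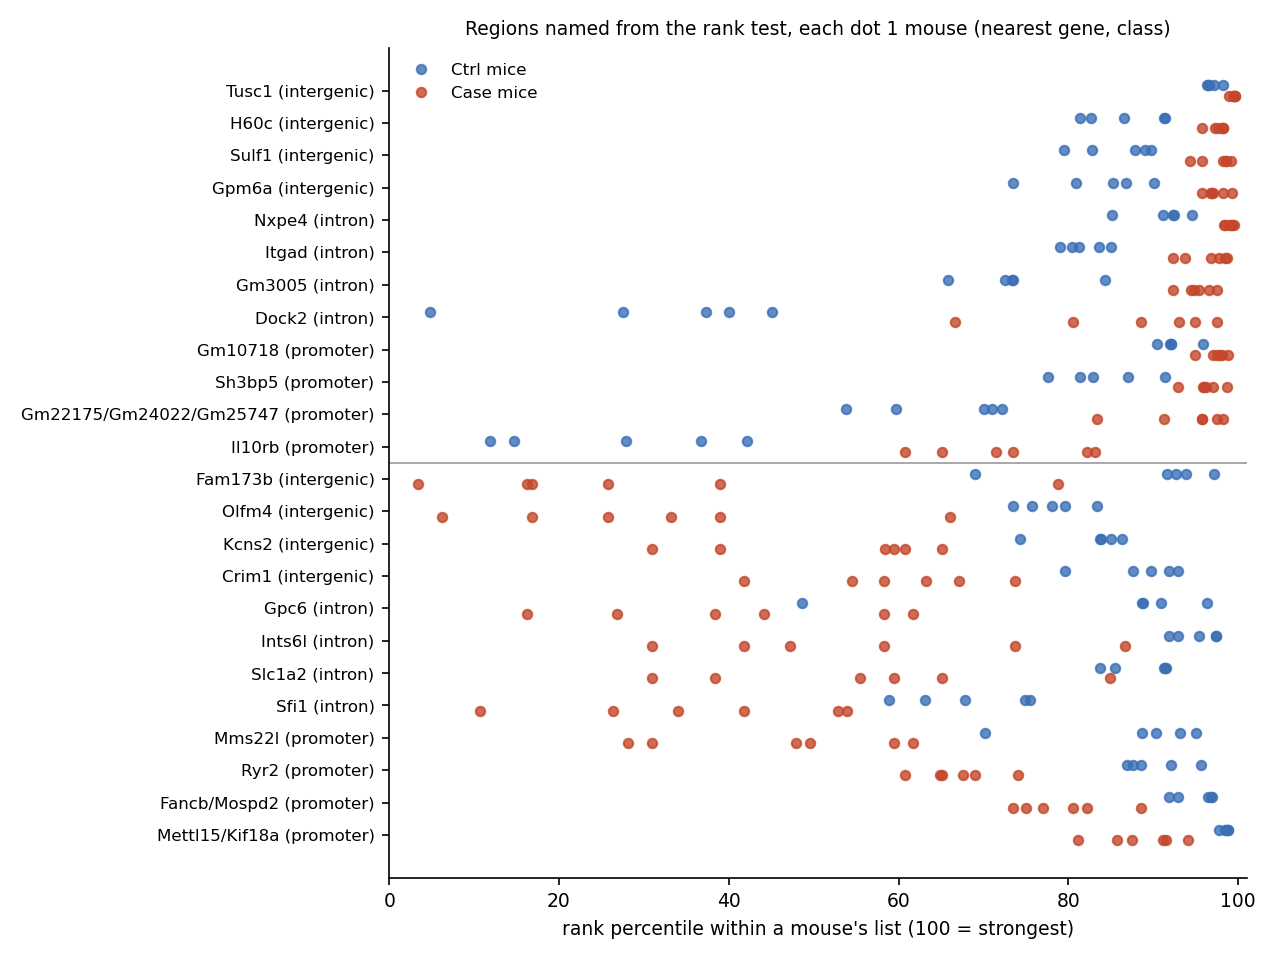
Rank percentile (100 = strongest) of the 24 regions named from the rank test, 1 dot per mouse, with the regions higher in Case above the grey line and those lower in Case below it. The Dock2 intron and the Il10rb promoter show the widest separation upward, and Ctrl dots of the lower regions crowd near the top of the scale.

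The same comparison was made per gene, with the strongest summit within 1 kb of any of its starts. Of 2314 genes tested for presence, 10 (0.432%) were more often and 226 (9.77%) less often found in Case at an unadjusted p under 0.05, and none passed adjustment (Fisher's exact test, lowest adjusted p 0.119). Of 8796 genes with a promoter summit in all 11 libraries, 310 (3.52%) ranked higher and 837 (9.52%) lower at an unadjusted p under 0.05, and none passed limma's adjusted p (lowest 0.131). On normal scores 20 genes (0.227%) passed as higher and 160 (1.82%) as lower. Without Ctrl 1, Ctrl 2, Ctrl 3 or Ctrl 5 the lower genes numbered 14, 10, 12 and 61, and without each of the first 3 the higher genes numbered 4. Without Case 2, Case 3 and Case 4, a choice made after the data had been seen, 120 genes passed as lower on the percentile scale itself and 0 as higher, and 46 of them were also among the 160 (38.3% of the 120 and 28.8% of the 160). Genes that share a start share a value. Among the 120, named after their values had been seen, the promoter of Dars, the aspartyl-tRNA synthetase, stood at 73.5, 83.8, 85.1, 86.1 and 76.5 in Ctrl 1 to 5 and at 1.14, 6.25 and 28.2 in Case 1, Case 5 and Case 6 (-69.1 ± 9.86 points, limma adjusted p 0.0127), while Case 2, Case 3 and Case 4 had 85.3, 82.1 and 58.3. That of Klhl2, an adaptor of a ubiquitin ligase, stood at 81.0 to 89.2 in Ctrl and at 44.2, 17.3 and 28.2 in the same 3 Case mice (-54.0 ± 8.67, limma adjusted p 0.0270), and at 87.7, 44.2 and 65.2 in those left out. The mice left out did not lie with the other Case mice in Dars, and lay on both sides in Klhl2.

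Promoters lower on normal scores had a median percentile of 95.5 in Ctrl, and those higher had one of 96.1 in Case. The promoter of Cadm2, a cell adhesion protein, stood at 98.7, 99.3, 99.3, 98.4 and 98.2 in Ctrl 1 to 5 and 73.5, 89.5 and 96.3 in Case (limma adjusted p 0.00286 on normal scores). That of Khdrbs2, an RNA-binding protein, stood at 98.9, 99.3, 95.4, 91.9 and 91.0 in Ctrl and 39.0, 63.7 and 89.7 in Case. That of Cox7c, a subunit of cytochrome c oxidase, stood at 97, 97.6, 98.4, 92.9 and 96.0 in Ctrl and 71.5, 77.8 and 91.2 in Case. In all 3 every Case mouse was below every Ctrl mouse, and Sclt1, Rasa1 and the telomere protein Pot1a showed the same. Of the 160 lower genes, 12 (7.50%) had symbols of the Zfp zinc finger genes, against 1.98% of all genes tested, and 12 (7.50%) were on chromosome X, against 0.910% of all genes tested. These genes were named after their values had been seen.

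Promoters on the X chromosome took up less of the lists in Case than in Ctrl. Promoters on X made up 2.44%, 2.45%, 2.36%, 1.89% and 2.14% of the promoter regions of Ctrl 1 to 5, and 1.15%, 1.38% and 1.505% (lowest, median, highest) of those of Case. The groups, all males, did not overlap, and this share had no test because it was chosen after the data had been seen. Of 63 X-linked promoters ranked in all libraries, 29 (46.0%) ranked lower in Case at an unadjusted p under 0.05 and 1 higher, with a median difference of -17.1 percentile points, whereas of 6652 autosomal promoters 581 (8.73%) ranked lower and 257 higher, with a median of -1.43. In the presence test 40 of 106 X-linked promoters (37.7%) were found less often in Case and 0 more often, against 204 of 2800 autosomal ones (7.29%). The promoter of Wdr44 stood at 94.9, 93.4, 84.5, 79.7 and 91.0 in Ctrl and 2.81, 46.2 and 78.6 in Case. The shared promoter of Mospd2 and Fancb, a DNA repair gene, ranked 91.9 to 97 in Ctrl and 73.5 to 88.6 in Case. In both the groups did not overlap. Wdr44 and Asmt were named after their values had been seen. The exception that ranked higher on normal scores was Asmt, which makes melatonin and lies in the part of X shared with Y, at 96.1 to 99.0 in Ctrl and 99.2 to 99.7 in Case.

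Over all regions tested for presence, 58 of 220 on X (26.4%) and 59 of 90 on Y (65.6%) were present less often in Case, and 0 more often, as was also the case on chromosome 12 (0 more often, 52 less often). Among autosomes the share ran from 3.48% on chromosome 11 to 13.3% on chromosome 3. Case 2 had the largest share of its summits on both X (2.00%) and Y (0.631%), and the other Case mice had 1.12% to 1.41% on X and 0.152% to 0.276% on Y. Windows of 5 Mb with the most regions less often present were chr2 from 15 Mb, with 8 of 20, chr3 from 105 Mb, with 8 of 33, and Y from 80 Mb, with 8 of 8, each with several genome copies. The window with the most regions found more often began at 145 Mb of chromosome 4, with 8 of 112, of which 6 had several copies.

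**Figure D4:**
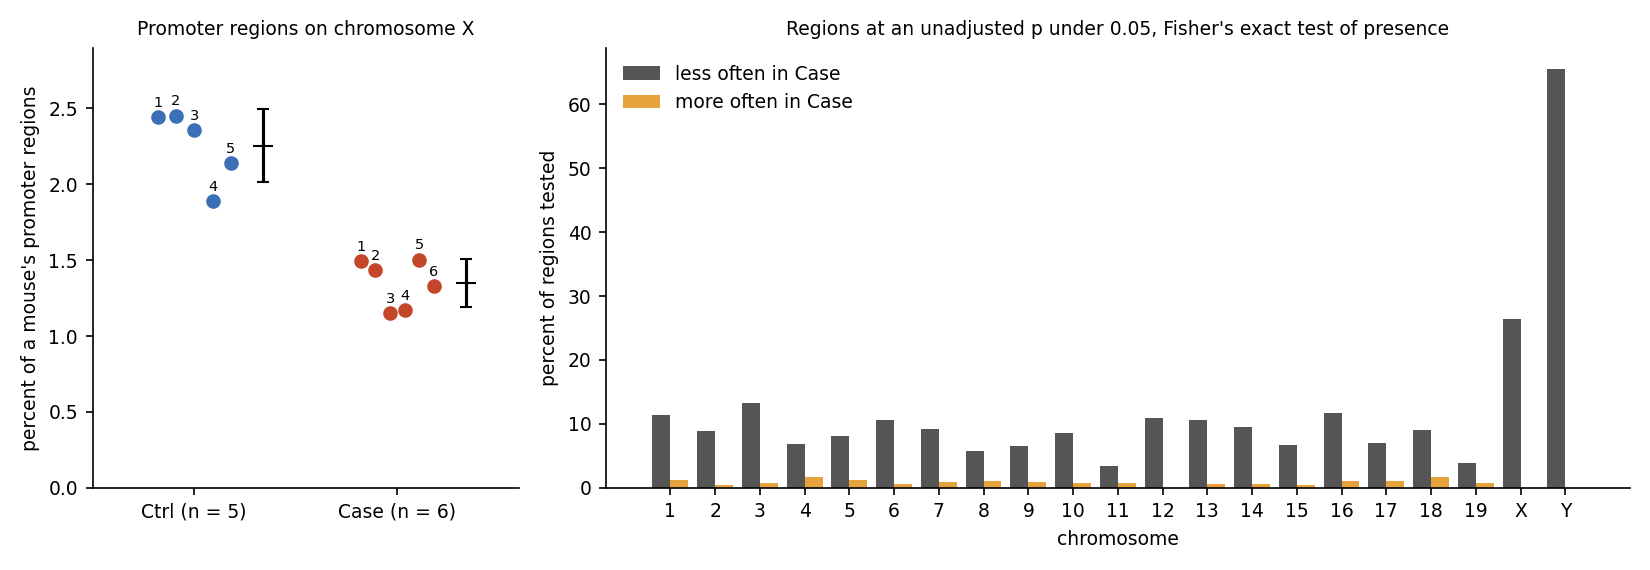
Left, percent of each mouse's promoter regions that lie on chromosome X, 1 dot per mouse with its replicate number, and mean and SD as bars. Right, percent of regions tested on each chromosome that were present less often (grey) or more often (orange) in Case at an unadjusted p under 0.05. All Case dots lie below all Ctrl dots, and the grey bars of X (26.4%) and Y (65.6%) exceed those of every autosome.

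Genes of kidney cell types were then described, by the share of each of 13 lists with a promoter summit. No gene of any list passed an adjusted p in the presence or rank test. In the proximal tubule list (30 genes) the share was 73.3% to 86.7% in Ctrl (mean 81.3% ± 5.06) and 53.3% to 73.3% in Case (65.6% ± 7.50). The lowest were Case 3, Case 2 and Case 4, the libraries with the fewest summits, at 53.3%, 60% and 66.7%, and the other Case mice had 70%, 70% and 73.3%, and without these libraries the groups still met at 73.3%. In this list 13 genes, Lrp2, Slc34a1, Hnf4a and Pck1 among them, had a summit in all 11 mice. For these 13 the median rank difference was -1.54 points, against -1.35 points over the 8796 genes tested, and 0 were past an unadjusted p of 0.05. The promoter of Acsm2, an acyl-CoA synthetase, stood at 33.3, 46.2, 12.2, 14.7 and 27.9 in Ctrl and was found in Case 6 alone (Fisher's exact test, p = 0.0152, adjusted p = 0.149). Slc22a12, the urate transporter, was found in 5 Ctrl and 2 Case mice (exact p = 0.0606), and Slc5a2, the renal glucose transporter, in 4 and 2 (exact p = 0.242).

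Housekeeping genes, used as the reference, had a promoter summit in 95.8% of 24 in each Ctrl mouse and in 87.5% to 95.8% in Case (91.0% ± 4.10). This list was near its ceiling in Ctrl. Of the 2314 gene promoters tested for presence, 9.77% were found less often in Case and 0.432% more often at an unadjusted p under 0.05 (Fisher's exact test). Hprt, an X-linked gene, was found in 5 Ctrl mice and Case 5 alone (exact p = 0.0152, adjusted 0.149), and Polr2a, the largest subunit of RNA polymerase, ranked 70.2 to 86.9 in Ctrl and 85.8 to 95.1 in Case (a difference of 13.6 ± 4.18 points, limma adjusted p 0.231). The distal convoluted tubule list (11 genes) had 54.5% to 63.6% in Ctrl and 45.5% to 54.5% in Case. In this list Trpv5, the calcium channel of the segment, was found in 4 Ctrl mice and Case 2 alone (exact p = 0.0801). The podocyte list had 32.5% ± 8.15 in Ctrl and 26.04% ± 7.31 in Case, and its Thsd7a, an autoantigen of membranous nephropathy, was found in 4 Ctrl and 0 Case mice (exact p = 0.0152, adjusted 0.149). Nphs1, which encodes nephrin of the slit diaphragm, and Synpo, an actin-binding protein of podocyte processes, went the other way, with 3 Case and 0 Ctrl mice each, at percentiles of 0.877 to 48.3 and 0.877 to 67.6, in too few libraries to be tested, and were named after their values had been seen. Values of the thick ascending limb (23.3% and 26.4%), principal cell (26.7% and 25.0%), intercalated cell (18.6% and 16.7%), endothelium (16.8% and 11.4%) and mesangium and stroma lists (21% and 13.3%) overlapped between groups.

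In the remaining kidney lists the genes first by p were mostly present in fewer Case mice, the direction also of all gene promoters tested, of which 9.77% were found less often and 0.432% more often in Case. Ptger3, a prostaglandin E receptor of the thick ascending limb, was at 33.9 to 51.1 in 4 Ctrl mice and absent from all Case mice (exact p = 0.0152, adjusted 0.149), whereas Umod, which encodes uromodulin of the same segment, was found in 4 Case and 2 Ctrl mice (exact p = 0.567). Itga8, an integrin chain of mesangium, and Meis1, a transcription factor of stroma, were each found in 5 Ctrl and 2 Case mice (exact p = 0.0606, adjusted 0.321). Robo4, a receptor of endothelium, was found in 4 Ctrl mice and Case 1 alone (exact p = 0.0801, adjusted 0.325). In the intercalated cell list Rhbg, an ammonium transporter, was found in 4 Case and 3 Ctrl mice and Slc4a9 in 2 of each (exact p = 1 for both). Cdkn1c of the podocyte list, a cell cycle inhibitor, was found in 3 Ctrl mice and Case 1 (exact p = 0.242), and Cnnm2, a magnesium-handling protein of the distal convoluted tubule, ranked 89.8 to 93.9 in Ctrl and 84.5 to 98.1 in Case (2.398 ± 2.20 points, limma adjusted p 0.671).

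The leukocyte list (25 genes) stood at 4% to 16% in Ctrl and 8% to 40% in Case, and the highest value was that of Case 3 alone, the other Case mice reaching 16%. In Case 3 the promoters of Spi1, Laptm5, Tyrobp, Itgax, Cd68 and Csf1r, all macrophage or myeloid genes, had a summit, and 5 of these 6 were found in no other mouse of either group. Of all its summits, however, 36.5% lay in regions found in no other library, against 6.26% to 26.9% in the other mice. Whether leukocyte promoters stood out from this share was not tested. Case 3 also had the most regions in the bodies of leukocyte genes, 17 against 6 to 9. The same held for the bodies of genes of other organs, at 14 against 1 to 7. By promoters, its share of the other organ list was 10%, within the 5% to 20% of the other mice. Ptprc, Cd3e, Adgre1 and Lyz2 had none in any mouse. Cd74, the invariant chain of antigen presentation, was found in Case 1, 2, 3 and 5, at percentiles of 59.5 to 86.7, and in no Ctrl mouse (exact p = 0.0606, adjusted 0.321). Ikzf1, a lymphoid transcription factor, went the other way, with 4 Ctrl and 0 Case mice (exact p = 0.0152, adjusted 0.149).

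The injured tubule list (17 genes) had 37.6% ± 6.71 in Ctrl and 40.2% ± 7.82 in Case. Of its 3 genes ranked in all mice, Clu, which encodes the injury marker clusterin, stood at 53.9, 69.9, 57.6, 62.9 and 78.9 in Ctrl and 55.1, 86.1 and 94.6 in Case, a difference of 17.8 ± 7.57 points (limma adjusted p 0.343), with overlap between groups through Case 3. Atf3, a stress transcription factor, differed by 6.29 ± 5.96 points (limma adjusted p 0.685). Lists of other organs (17% and 11.7%) and of adipose and adrenal tissue (4% and 5%) were low in both groups, and Adipoq was at 0 throughout. In gene bodies, where 8.06% of all introns tested were present less often, 2 introns of Magi2 and 1 of Plekhh2, both podocyte genes, were found less often in Case at an unadjusted exact p of 0.0152 (adjusted 0.149), as were 1 intron each of Slc8a1 and Atp6v0d2. These were 3 of 12 body regions tested in the podocyte list, 1 of 8 in the distal convoluted tubule list and 1 of 3 in the intercalated cell list. The proximal tubule list had 0 of 19, and no other list had any. From so few regions no result about a cell type is read. An intron of Cd44, a hyaluronan receptor of the injured tubule list, ranked 87.4 to 96.6 in Ctrl and 92.1 to 98.7 in Case, a difference of 4.64 ± 1.88 points (limma adjusted p 0.288). Regions in the bodies of podocyte genes numbered 18.4 ± 2.51 per Ctrl mouse and 14.3 ± 2.88 per Case mouse, with ranges of 15 to 22 and 10 to 19. Those in proximal tubule genes overlapped too, at 26 to 35 in Ctrl and 17 to 39 in Case.

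**Figure D5:**
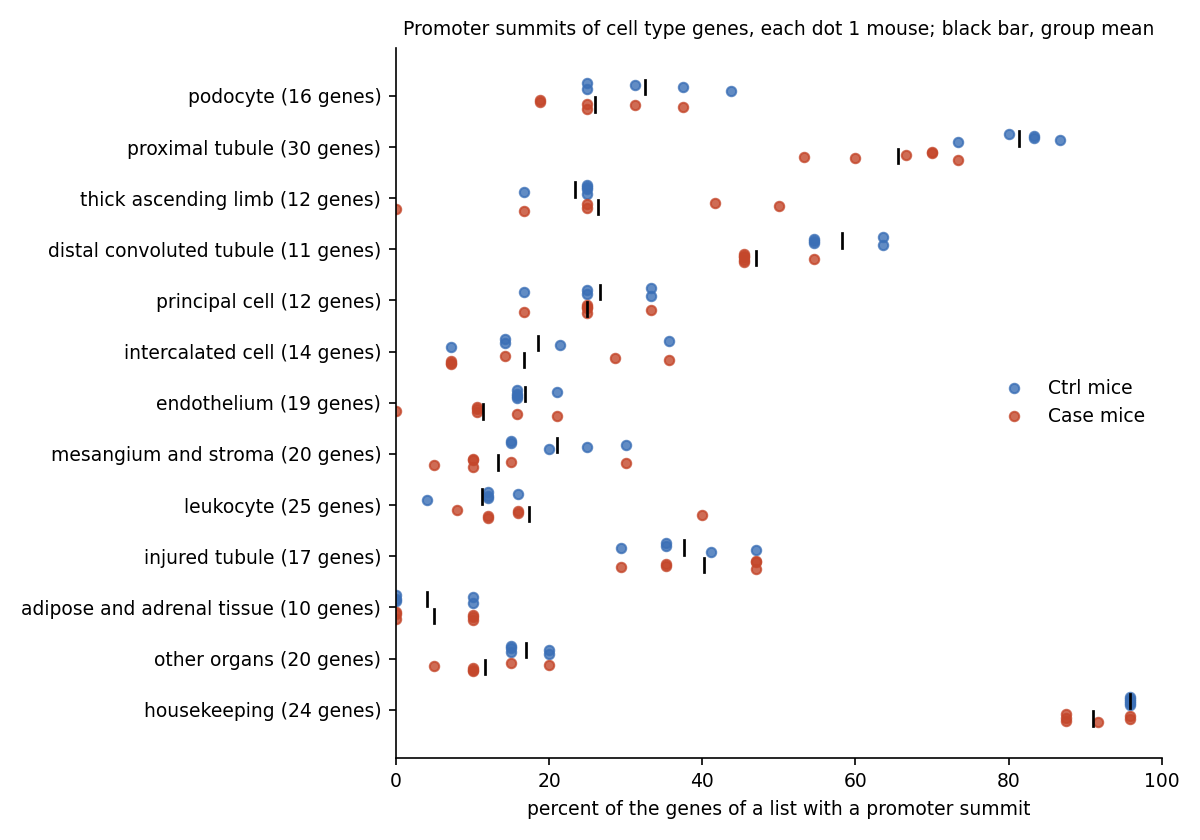
Percent of the genes of each list with a promoter summit, 1 dot per mouse, with a black bar at the group mean. Proximal tubule dots of Ctrl (73.3% to 86.7%) lie at or above all those of Case (53.3% to 73.3%), and a single Case dot stands out in the leukocyte list at 40%.

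Base composition and motif letters were compared as shares of regions, without a test. Intronic regions of Case held more G and C, with a mean of 50.3% to 51.9% per mouse against 49.0% to 50.0% in Ctrl, while promoters had 62.6% to 63.2% and 62.8% to 63.0%. Introns present less often in Case had a median GC content of 44.5%, against 49.2% over those tested, and intergenic regions 44.9% against 49.5%, whereas promoters had 59.8% against 58.8%. In intergenic regions the letters GTTAATNAT of HNF1, a factor of proximal tubule and liver, were found in 10.3% of those present less often in Case, in 4.38% of those tested and in 1.95% of all intergenic regions. In introns the same letters were found in 5.85% of those present less often and in 5.19% of those tested. The letters of HNF4 were found in 4.04% of intergenic regions present less often and in 3.51% of those tested. Of the intergenic regions present less often, 19.3% had several genome copies, so their matches need not be independent. The letters CCAAT were found in 56.9% of the promoters lower on normal scores, against 44.5% of those tested by rank and 33.9% of all promoter regions. The motifs named here were picked from 15 by no rule set beforehand. All counts are on both strands within 150 bp of a region's middle, and a match is not a binding site.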

How the data were processed

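ATAC-seq summit lists of 11 whole-kidney libraries were analysed (Ctrl, n = 5; Case, n = 6). Per the study's methods, the authors removed duplicates and blacklisted reads, shifted reads for the transposase and called peaks in each library, and the submitters' processing notes name Bowtie2, MACS2, DiffBind, HOMER and mm10. The deposited score of each summit is a −log10 value given by the peak caller, and whether it is of a p or a q is not given in the sources used here. Read depth is unknown, so DiffBind's test on reads could not be run. Columns of per-sample values that were left unused numbered 0.

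The 29702 highest summits of each list were kept, ties were broken in a seeded random order (seed 1), and ranks were turned into percentiles. Features were annotated with GENCODE M21 (141730 transcripts of 55413 genes). Presence was tested with Fisher's exact test, ranks of features in all 11 libraries with limma 3.58.1 in R 4.3.3 (trend, Benjamini-Hochberg), and 8 values per mouse with exact permutation tests in Python 3.11.15 with scipy 1.17.1, where the smallest possible p is 0.00216. Scripts were tested on simulated data. Promoters, introns and intergenic regions named are the first 4 by p in each direction and test, with equal p-values ordered by the difference in presence or rank and then by the mean percentile in the mice that have the region. Genes named in a cell type list are the first 2 by p, beside its defining markers. Spi1 and the other leukocyte genes of Case 3, Slc5a2, Hnf4a and Pck1 were named after their values were seen. Members, lists and tests were chosen with earlier results of these data known. Permutation and limma p-values set a group difference against the variation between these mice. Those of Fisher's exact test set the counts of mice with a feature against random allocation to the groups. Alternatives were list length, score minimum, tie order, extension, promoter distance, scale, absent summits, array weights, replicate block and mice left out. Some items are not reported here.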

Additional observations from a re-analysis of the deposited data

Results flagged for a closer look

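Of 47 sets of values within a group, 9 held a mouse whose gap to the nearest other mouse was large against the range of its group. For continuous values chance alone gives this in about 1 in 20 sets, a rate that does not hold for shares of short gene lists, where mice are often tied. Case 2 stood apart in 3 sets, with 2.83% of summits in exons (3.38% to 3.64% in the other Case mice), 2.00% on X (1.12% to 1.41%) and 0.631% on Y (0.152% to 0.276%). Case 3 stood apart in the share of leukocyte promoters with a summit, at 40% (8% to 16% in the others), and of distal convoluted tubule promoters, at 54.5% (45.5% in all others). Ctrl 4 had 1.47% of summits on X (1.78% to 1.90% in the other Ctrl mice) and a summit at 21.1% of endothelium promoters (15.8% in all others). Ctrl 5 had 3.16% of summits in exons (3.28% to 3.32%). Ctrl 2 had a summit at 16.7% of thick ascending limb promoters (25.0% in all others). Shares of short lists move in steps of 1 gene.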

How the results depend on the processing

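The number of summits per library limits what can be seen, since a region is absent when it falls outside the 29702 strongest. Alternatives with mice left out together, regions outside repeats, tie orders and normal scores with mice left out were chosen after seeing the data. Where a value changed, the cause was not tested. For the promoter share the replicate block (mice 1 to 5 paired by number, exact sign-flip test, smallest p 0.0625) gave -2.40 points, all summits 2.35, scores of at least 5 gave 5.46, autosomes -2.05 (adjusted p 0.0519), a distance of 3 kb -1.89, and single mice left out -2.71 to -1.95. Same-numbered mice did not deviate together (correlations over regions -0.0860 to 0.0273), the numbers pair nothing that the labels name, and limma with the block called 0 regions in each direction, as did array weights. Intronic shares were 1.08 with the 14851 strongest summits of each list, 1.07 without Case 2, Case 3 and Case 4, and -0.391 to 0.219 with single mice left out. Exonic shares were -0.0157 with all summits, -0.287 with scores of at least 5, 0.253 without the 3 Case mice (adjusted p 0.0476) and 0.122 to 0.284 with single mice left out. Intergenic shares were -0.600, -1.97 and, with single mice left out, 1.45 to 2.97. The mean percentile of promoter summits differed by 0.0512 under the replicate block and by -0.422 to 0.278 with single mice left out, that of intronic summits by -0.364 with all summits, 1.91 without the 3 Case mice and 1.22 to 1.88, that of intergenic summits by 0.142 to 0.786, and the share in regions of 1 library by 8.87 to 14.02.

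Regions present more often numbered 479 with mid-p, 42 with all summits, 14 with scores of at least 5, 188 without the 3 Case mice, 53 outside repeats and 130 to 242 with single mice left out. Those present less often numbered 2244 with mid-p, 425 with the 14851 strongest summits, 322 without the 3 Case mice and 1173 to 1978. Presence counts with mice left out are not on the scale of those from all mice, since fewer mice change which regions can reach this p. Regions ranked higher numbered 147 on normal scores, 54 with absent summits at percentile 0, 4 each with all summits, the 14851 strongest summits and scores of at least 5, 3 with an extension of 500 bp, 1 without the 3 Case mice and 0 to 28 with single mice left out. Regions ranked lower numbered 158, 302 (absent at 0), 1 (14851 strongest), 2 (scores of at least 5), 37 (without the 3 Case mice) and 0 to 2. Gene promoters ranked higher numbered 20 on normal scores, 6 with absent summits at 0 and 4 with the 14851 strongest summits, and those ranked lower 160, 31, 1 and, without the 3 Case mice, 120. Of single genes, the promoter of Cnnm2 turned to -0.156 points without the 3 Case mice, and the presence difference of Rhbg ran from -8.33 (without Ctrl 1 or Ctrl 3) to 20 points and that of Slc4a9 from -20 to 8.33 points (without Ctrl 2 or Ctrl 4). Over all settings, the values of the comparisons were the same as reported in 288 instances and moved in 44. They were reversed in 20, lost the call in 11 and gained it in 6. For single values per mouse the same means direction and call, and for counts a similar number. Only counts could be labelled as moved. Those of named regions and genes were the same in 874, moved in 20, were reversed in 5 and gained a call in 35.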
